A study of Homo sapiens with 19 samples.

Results

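AKAP8 binding sites that were listed only in the mesenchymal state are described here. Single-end eCLIP (seCLIP), in which a protein is crosslinked to RNA with ultraviolet light, precipitated and the attached RNA sequenced, gave 1 merged peak list for each of 2 cell states. The list of the mesenchymal state (MES) held 30390 peaks and that of the epithelial state (EPI) 24637 peaks, or 55027 in all. A MES peak counted as MES-only when it shared no nucleotide on its strand with any EPI peak, and no cutoff was put on the peak values. This left 15379 MES-only peaks, 50.6% of the MES list (Wilson 95% interval 50% to 51.2%). The other 15011 MES peaks overlapped an EPI peak (MES shared), and 9467 EPI peaks overlapped no MES peak (EPI-only). The peaks were selected on presence in the 2 lists, so their presence, absence and list values are a description and were not tested.

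The cells were HMLE/Twist-ER, an immortalized human mammary epithelial line with a Twist-estrogen receptor fusion. Tamoxifen activates the fusion protein, and Twist drives epithelial-mesenchymal transition (EMT). Untreated cells were EPI, and cells kept in 20 nM tamoxifen until they looked mesenchymal were MES. All samples come from this single line. For seCLIP, 2 AKAP8 immunoprecipitates (IP) and 2 size-matched inputs were made in each state, 8 libraries in all, and no shRNA is stated for them. For RNA-seq, lines that stably expressed a non-specific shRNA (control) or an AKAP8 shRNA (knockdown) gave 11 poly(A) libraries, from 3 EPI control, 3 EPI knockdown, 3 MES control and 2 MES knockdown samples.

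AKAP8 is a nuclear member of the A-kinase anchoring proteins, scaffolds that tether protein kinase A, and it also binds RNA and takes part in splicing. Splicing regulators bind exons or the introns beside them, and depending on the place a bound protein can help or hinder the use of an exon. Runs of guanines in introns are familiar binding sites of the hnRNP F and H family. In EMT, epithelial cells lose cell-cell junctions and apical-basal polarity, make matrix and migratory proteins, and change the splicing of many transcripts.

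The labelled states were checked against marker genes. Gene level was read from RNA-seq as the junction reads over the skipped exon (SE) events of a gene, scaled for library size. All 5 epithelial markers with a value were lower in MES control libraries (summed level 548 to 896 scaled reads against 7350 to 8770 in EPI control), and all 7 mesenchymal markers with a value were higher (2915978 to 5311748 against 689000 to 1566406). The mesenchymal sum is mostly FN1 (2770000 to 5160000 in MES and 661000 to 1530000 in EPI control), which held no MES-only peak. No gene among the 8 epithelial markers held a MES-only peak, and 5 of the 9 mesenchymal markers did. AKAP8 itself stood at 244, 310 and 245 scaled reads in EPI control and at 382, 196 and 248 in MES control, with a log2FC of 0.00 between them (SE 0.25). Knockdown lowered it to 108 and 122 in MES (log2FC -1.20, limma adjusted p = 0.0322). In EPI it stood at 121, 98.8 and 125 after knockdown (log2FC -1.20), which did not pass (limma adjusted p = 0.0664), and in each state no knockdown library reached the control range. The libraries held between 31258177 and 40852217 junction reads over SE events, whereas the seCLIP depth is unknown because the peak lists carry no read counts.

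The strongest MES-only peaks lay mostly in introns, in genes with very different functions. Among the 15 with the highest log2 IP/input, 4 were in PLEC, which encodes the cytoskeletal linker plectin, with the top value of 6.71. Another was in GLI2, a transcription factor of Hedgehog signalling (log2 6.27, -log10 adjusted p 27.2), and its nearest EPI peak on that strand was 1561167 nt away. Others were in HNRNPH1, a G-run-binding splicing factor (log2 6.15, 89 nt from an EPI peak), SDC3, a syndecan (6.08, 7101 nt), CAPN15, a calpain-family protein (6.08, 24 nt), the spindle checkpoint gene MAD1L1 (6.06, 6787 nt) and the nuclear envelope gene SYNE3 (6.02, 143223 nt). Of these 15 peaks, most came as overlapping pairs, so that the 4 in PLEC form 2 regions, and those in SDC3, CAPN15 and MAD1L1 1 region each.

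The windows of 100 nt centred on 4 of them, read 5′ to 3′ on the RNA strand from GRCh37, show what the precipitated RNA looked like, with every run of at least 3 guanines in capitals. They lie at chr2:121548546-121548645 (GLI2, plus strand), chr1:31366068-31366167 (SDC3, minus strand), chr7:1909099-1909198 (MAD1L1, minus strand) and chr5:179045813-179045912 (HNRNPH1, minus strand).
GLI2: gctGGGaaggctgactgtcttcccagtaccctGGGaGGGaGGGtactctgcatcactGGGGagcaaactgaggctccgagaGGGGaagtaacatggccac
SDC3: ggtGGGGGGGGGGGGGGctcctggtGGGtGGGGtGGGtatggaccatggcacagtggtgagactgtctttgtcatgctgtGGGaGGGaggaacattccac
MAD1L1: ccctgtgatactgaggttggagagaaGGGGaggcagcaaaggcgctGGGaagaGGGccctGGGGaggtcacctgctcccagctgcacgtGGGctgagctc
HNRNPH1: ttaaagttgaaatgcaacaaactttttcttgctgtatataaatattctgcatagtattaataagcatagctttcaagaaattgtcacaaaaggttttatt
The GLI2 and SDC3 windows each hold 6 such runs and the MAD1L1 window 5. The HNRNPH1 window holds none and only 13 guanines.

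A second set comes from genes that had MES-only peaks and no EPI peak anywhere. They are shown because 4 of these genes encode matrix or signalling proteins of the mesenchymal state, and RASA3 held many such peaks. The windows lie at chr21:47415921-47416020 (COL6A1, plus strand), chr9:137601722-137601821 (COL5A1, plus strand), chr3:55520515-55520614 (WNT5A, minus strand), chr4:55099387-55099486 (PDGFRA, plus strand) and chr13:114870272-114870371 (RASA3, minus strand).
COL6A1: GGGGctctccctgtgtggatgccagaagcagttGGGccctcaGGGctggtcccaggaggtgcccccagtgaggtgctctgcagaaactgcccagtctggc
COL5A1: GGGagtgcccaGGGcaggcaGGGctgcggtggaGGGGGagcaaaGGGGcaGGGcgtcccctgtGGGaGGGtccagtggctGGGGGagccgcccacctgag
WNT5A: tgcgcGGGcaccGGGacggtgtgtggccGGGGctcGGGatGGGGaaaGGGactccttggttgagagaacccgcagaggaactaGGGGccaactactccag
PDGFRA: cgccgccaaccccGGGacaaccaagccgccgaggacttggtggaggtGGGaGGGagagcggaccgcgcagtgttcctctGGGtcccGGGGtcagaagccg
RASA3: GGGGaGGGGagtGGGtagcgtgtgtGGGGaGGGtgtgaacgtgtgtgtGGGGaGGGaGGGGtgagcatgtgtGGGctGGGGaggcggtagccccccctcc
The number of G runs differed from 3 in COL6A1 and 5 in PDGFRA to 7 in WNT5A, 9 in COL5A1 and 10 in RASA3, where guanines made up 56 of the 100 bases. All 5 lie in introns, that of WNT5A 442 nt from the upstream 5′ splice site and that of RASA3 27587 nt from it.

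MES-only peaks lay mostly deep inside long introns. Each peak was placed on the Gencode annotation in the order coding exon (CDS), untranslated region (UTR), other exon, proximal intron (within 500 nt of a splice site), distal intron and no gene on the strand. Distal introns held 12130 of the 15379 peaks (78.9%, 95% interval 78.2% to 79.5%) and proximal introns 2181 (14.2%, 13.6% to 14.7%). UTRs held 3.21%, coding exons 0.618%, other exons 0.722%, and 2.4% had no annotated gene on their strand. The MES peaks that overlapped an EPI peak were less often in distal introns (71.7%, 71% to 72.5%) and more often in proximal introns (19.7%). The EPI-only peaks stood furthest away, with 55% in distal introns (54% to 56%) and 32.1% in proximal introns. These intervals and those below cover counting error only. No list gives values for single replicates, and 47.2% of the MES-only peaks overlapped another MES-only peak, leaving 11489 separate regions, so no test between the sets was made.

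**Figure D1:**
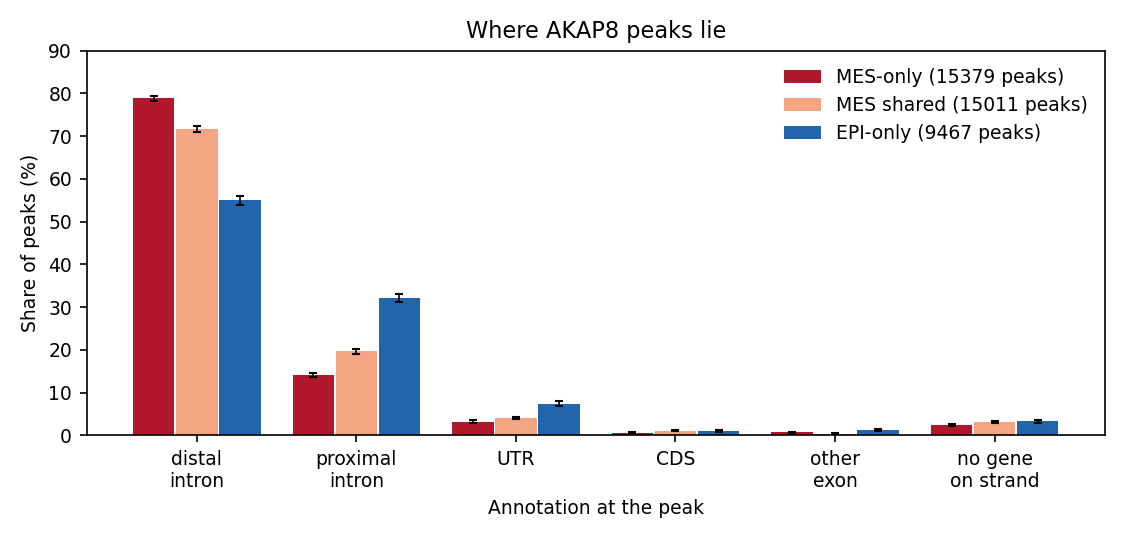
Share of peaks (%) in each annotation class for MES-only (15379 peaks), MES shared (15011) and EPI-only (9467) peaks, with Wilson 95% intervals as error bars. The MES-only bar is the tallest in distal introns (78.9% against 71.7% and 55%) and the shortest in proximal introns (14.2% against 19.7% and 32.1%).

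The introns themselves were long. Counted once for every peak, the median length of the intron around a MES-only peak was 20500 nt. It was 12200 nt for MES shared and 9070 nt for EPI-only peaks. Introns with many peaks weigh more in these medians. The median MES-only peak in an intron lay 6080 nt downstream of the 5′ splice site, where the shared peaks lay at 3450 nt and the EPI-only peaks at 1630 nt. Of the MES-only peaks in introns, 38.5% were over 10 kb from the 5′ splice site (37.7% to 39.3%), as compared with 25% and 18.3% in the other sets. Position relative to intron length moved the same way, with 16.6% of MES-only peaks in the first 10% of their intron, 20.6% of shared and 26.2% of EPI-only peaks. The share in distal introns was higher in the stronger MES-only peaks, from 74.4% at a log2 IP/input under 2 to 85.8% at 5 or above (324 peaks).

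Much of this binding was near the ends of chromosomes. Within 5 Mb of a chromosome end lay 55.9% of the MES-only peaks (55.1% to 56.7%), although this zone holds 7.51% of the summed length of annotated genes. The MES shared peaks were there more often still (65.5%), and the EPI-only peaks less often (36.3%).

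G runs were nearly universal among MES-only peaks, but less dense than in the other sets. The motif GGG on the RNA strand occurred in 99.3% of the 100 nt windows (99.2% to 99.4%), in 88.9% of the windows of the same length 500 nt downstream, and in 81.6% of the same windows on the other strand. Longer motifs, which all contain GGG, separated peaks from their surroundings further. GGGG occurred in 83.2% of windows and 54.3% of downstream windows, GGGA in 80.2% and 54%, AGGG in 78.9% and 55.7%, TGGG in 87.2% and 68.1%, and GGGT in 69.5% and 47.9%. The MES shared peaks held each of them more often, GGGG in 92%, GGGA in 88.3%, AGGG in 86.5%, TGGG in 91.9% and GGGT in 77.1%. GTGT, searched for comparison, was as frequent in MES-only windows (37.2%) as downstream (36.7%), and TTTTT was rarer (3.97% against 8.07%).

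Base composition told the sets apart in the same direction. Guanine made up 38% of the MES-only windows on average, 43.3% of the shared and 44.5% of the EPI-only windows, whereas cytosine made up 25.1%, 22.7% and 20.7%. The median window held 4 runs of 3 or more guanines in MES-only peaks and 6 in both other sets. The guanine content of MES-only peaks reached 46.2% in the 10 nt bin centred 15 nt upstream of the peak centre and was 33.3% in the bin 145 nt upstream. In the shared peaks these values were 50.5% and 36.3%. Stronger MES-only peaks were not richer in guanine, with a mean of 39.2% below a log2 of 2 and 37.1% at 5 or above. Repeated words of 20 nt within 300 nt, a sign of tandem repeats, occurred around 5.92% of MES-only and 8.91% of shared peaks.

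**Figure D2:**
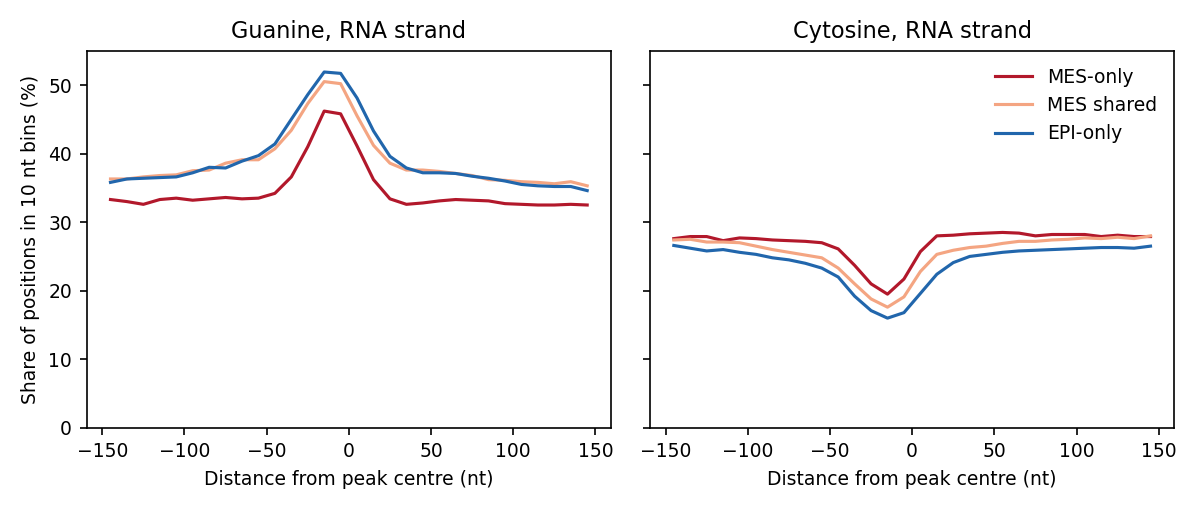
Guanine (left) and cytosine (right) as a share of positions (%) in 10 nt bins against the distance from the peak centre (nt) on the RNA strand, for the 3 sets of peaks. In MES-only peaks guanine rises from 33.3% at 145 nt upstream to 46.2% at 15 nt upstream and stays below the other sets there (50.5% and 51.9%), whereas cytosine falls to 19.5% at that place, above 17.6% and 16%.

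Only 105 MES-only peaks (0.683%) had no GGG in their window, in 59 genes. They included 9 peaks in SKI, 7 in MAD1L1, 5 in HNRNPH1, 5 in the architectural lncRNA NEAT1 and 4 in C7orf50. Their median log2 IP/input was 3.4, close to the 3.3 of all MES-only peaks.

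In value, MES-only peaks were about as enriched over input as the others but less significant. The median log2 IP/input was 3.3 (quartiles 2.63 and 3.81), against 3.41 for MES shared and 3.48 for EPI-only peaks. The median -log10 adjusted p was 5.24, against 11.6 and 6.07, and the median width 53 nt, against 60 nt and 65 nt. At the study's cutoffs for high confidence (log2 of at least 2 and -log10 adjusted p of at least 3) 12234 MES-only peaks remained (79.6%), as did 93.2% of the shared and 84.7% of the EPI-only peaks. The share of MES peaks that were MES-only fell with the -log10 adjusted p of the peak, from 79.3% below 4 to 56.6% between 5 and 10, 30.3% between 10 and 20, and 8.17% at 50 or above (51 of 624 peaks). The rule used overlap between the 2 lists and not these values. They come from the same lists, so these are descriptions.

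Many MES-only peaks had an EPI peak close by. An EPI peak on the same strand lay within 100 nt of 3323 of them (21.6%) and within 1000 nt of 9076 (59%), and the median gap was 565 nt. At the edge of the rule, 603 MES-only peaks were within 10 nt of an EPI peak (86 of them touching it), with a median log2 of 3.47, a median -log10 adjusted p of 8.17 and a width of 45 nt. Just inside the shared set, the 596 MES peaks that shared 1 to 10 nt with EPI peaks had medians of 3.53, 9.8 and 36 nt. The 6303 MES-only peaks over 1000 nt from any EPI peak were weaker by significance, with a median log2 of 3.13 and -log10 adjusted p of 4.28. The set therefore holds both peaks beside an EPI peak and peaks far from every EPI peak.

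The peaks were concentrated in few genes. In all, 15010 MES-only peaks lay in 1525 genes, of which 1404 are protein coding and 121 lncRNA genes. A gene held a median of 2 peaks, and 555 genes held a single peak, but the 15 leading genes held 22% of the peaks and the 100 leading genes 55%. Of the 1525 host genes, 892 also held a MES shared peak, and 407 held no EPI peak at all. These 407 genes contained 1825 MES-only peaks (12.2%). The remaining peaks were thus in genes that AKAP8 bound in both states.

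MAD1L1 led with 457 MES-only peaks, beside 214 EPI peaks. SEPTIN9, a cytoskeletal septin, held 279 (272 EPI peaks) and the nuclear receptor RXRA 259 (399 EPI peaks), so that MES-only peaks were 62.7%, 49.9% and 34.2% of their MES peaks. The mechanosensitive channel gene PIEZO1 held 214 MES-only peaks, VAV2 208, and the SMAD corepressor SKI 205. Next came ZC3H3 with 193, COL18A1, a basement membrane collagen, with 192, MACROD1 with 180, C7orf50 with 177, the histone demethylase KDM4B with 163 and NACC2, a BTB-domain transcription factor, with 160. COL18A1 stood out among them with 35 EPI peaks, so that 80.7% of its 238 MES peaks were MES-only. Only 2 of the 15 leading genes had no EPI peak, GLI2 with 252 MES-only peaks and RASA3, a GTPase-activating protein for Ras and Rap, with 146. Of the 15 genes, 12 are over 100 kb long.

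Within a gene, MES-only peaks were spread unevenly. In GLI2 (257.0 kb), 79.8% lay nearer to the start than to the end of the gene, with a median of 70.5 kb from the start. In RASA3 (150.9 kb) this share was 79.5%, and in COL18A1 (108.6 kb) 93.2%. COL6A1 (23.3 kb), which encodes a chain of type VI collagen, showed the reverse, with 9.09% nearer to the start and all 44 peaks between 1.6 kb and 15.3 kb. The neighbouring COL6A2 held 51 MES-only peaks, of which 15.7% were nearer to the start. In MAD1L1 (417.4 kb) the MES-only peaks ran from 8.35 kb to 406 kb and lay among the MES shared peaks, which ran from 8.91 kb to 383 kb.

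**Figure D3:**
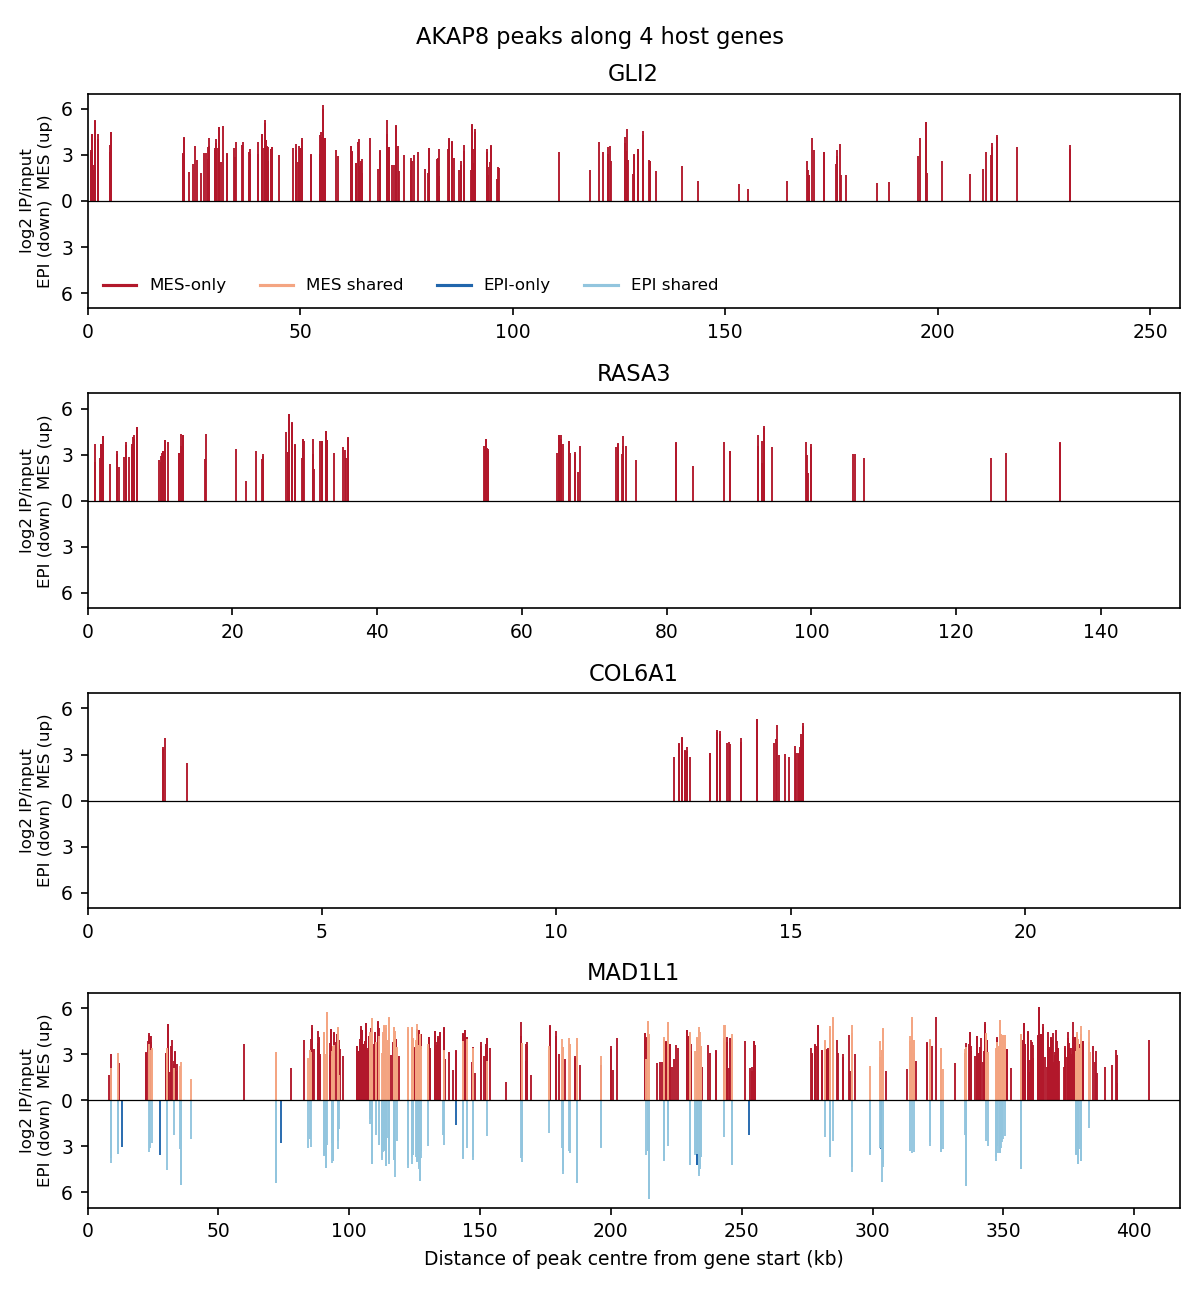
AKAP8 peaks along GLI2, RASA3, COL6A1 and MAD1L1, with the distance of each peak centre from the gene start (kb) on the x axis and log2 IP/input on the y axis, MES peaks drawn upward and EPI peaks downward. GLI2 (252 peaks), RASA3 (146) and COL6A1 (44) show MES-only peaks alone, whereas in MAD1L1 457 MES-only peaks lie among 272 MES shared and 214 EPI peaks.

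RNA level was compared next. The rule did not use it directly, but a peak can be listed only where RNA is present, so the 2 are not independent. Host genes with almost no reads in EPI, such as ADGRA2, entered the fit through their MES libraries and count among those higher. A gene was called where limma gave an adjusted p under 0.05 and |log2FC| exceeded 1, on the log2(value + 1) scale, over the 9016 genes tested. Of all genes tested, 5.39% were called higher in MES than in EPI control and 7.15% lower. Of the 1525 host genes, 1053 had a value, and 97 of them (9.21%) were higher and 54 (5.13%) lower. The 407 host genes with no EPI peak, of which 224 had a value, were higher in 47 cases (21%) and lower in 6 (2.68%), with a median log2FC of 0.28 against 0.011 for all genes. The 829 tested host genes that also had an EPI peak were near the background, with 50 higher (6.03%) and 48 lower (5.79%). Without the second EPI control or the second MES control library, 35 of all hosts were called lower. Hosts with at least 10 MES-only peaks were higher in 32 of 217 cases (14.7%) and lower in 10 (4.61%). Among tested genes with EPI-only peaks and no MES peak, 14 of 809 were higher (1.73%) and 139 lower (17.2%). In these bulk libraries, a change in the share of cells that express a gene and a change in RNA per cell cannot be told apart.

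The same relation appeared peak by peak. In genes with a log2FC of -1 or less, 40.5% of the MES peaks were MES-only (778 of 1921, 95% interval 38.3% to 42.7%), and in genes above 1 the share was 78.2% (1497 of 1914, 76.3% to 80%). It was 45.5% between -0.5 and 0, 51.3% between 0 and 0.5, and 61.2% between 0.5 and 1. With every gene weighted equally, the shares in the lowest and highest class were 33.7% (102 genes) and 83.1% (109 genes). Genes called higher held 13.5% of the MES-only peaks that had a value, 3.68% of the MES shared and 1.86% of the EPI-only peaks, and genes called lower held 4.16%, 7.8% and 23.8%. RNA level and the presence of a peak thus moved together, and the part of RNA level in the calling of peaks was not tested. Most MES-only peaks with a value were nevertheless in genes called neither higher nor lower.

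**Figure D4:**
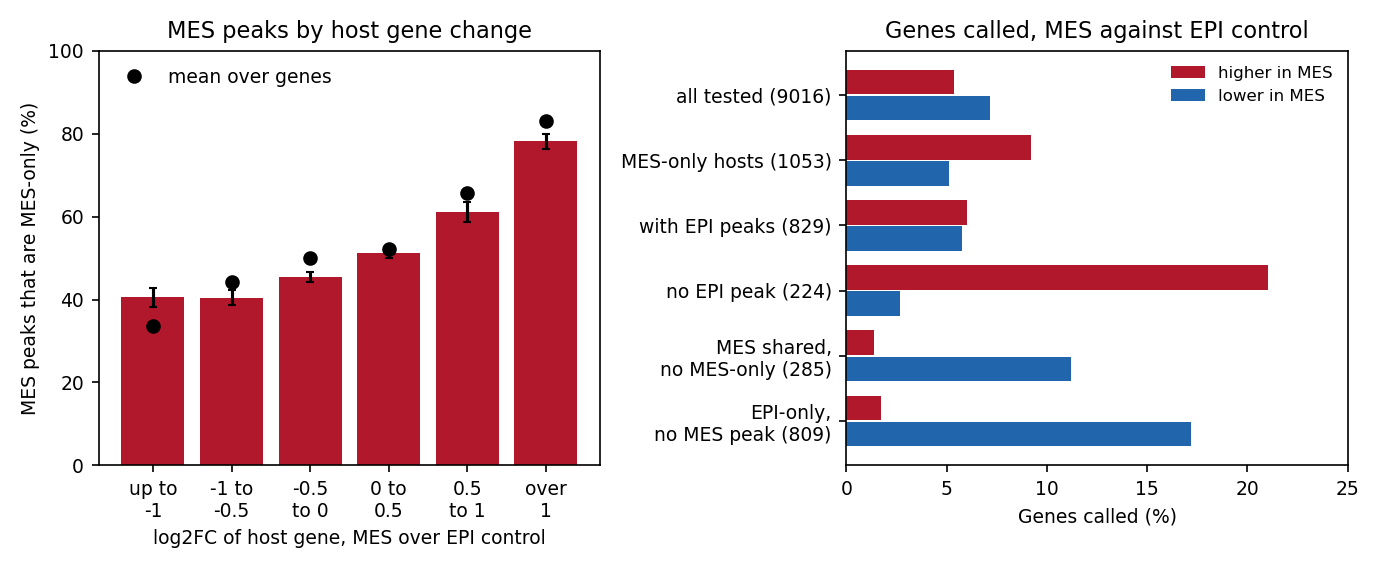
Left, share of MES peaks that were MES-only (%, bars with Wilson 95% intervals; points, mean over genes) by the log2FC of their host gene between MES and EPI control, from 40.5% at -1 or less to 78.2% over 1. Right, share of tested genes (%) called higher or lower in MES for 6 sets of genes, where hosts of MES-only peaks without an EPI peak reach 21% higher and genes with EPI-only peaks alone 17.2% lower.

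Among hosts with a value in the fit of all 11 libraries, the 10 with the largest rise had no EPI peak, and several of them encode extracellular matrix or its receptors. COL6A1 stood at 10.4, 17.7 and 10.3 scaled reads in EPI control and at 3840, 4260 and 2760 in MES control (log2FC 8.05, SE 0.28, limma adjusted p = 2.95e-09). The states are far apart in all 6 libraries. FBLN5, an elastic fibre protein with 2 MES-only peaks, rose from 4.74, 14.8 and 22.7 to 3310, 6580 and 5310 (log2FC 8.56). COL1A1, the major fibrillar collagen chain, with 3 peaks, rose from 140, 196 and 119 to 19300, 28200 and 13300 (7.02). The mesenchymal cadherin CDH11, with 6 peaks, rose by 7.34 on the log2 scale, from between 0.948 and 10.3 to between 632 and 1330. The others were LRIG1 (6.84), a regulator of receptor tyrosine kinases, ADGRA2 (5.96), an adhesion receptor that held 11 peaks, COL8A1 (4.99), the lncRNA NR2F1-AS1 (4.89), with 10 peaks, the growth factor receptor FGFR1 (4.55) and the myosin light chain MYL9 (4.53). In LRIG1, ADGRA2 and NR2F1-AS1 the EPI control libraries lay at or below 5.69 scaled reads, with 0 in a library of each, so that these log2FC values depend on the added 1. Hosts with a value only in the EMT table, such as COL6A2, FBN1 and WNT5A, are not ranked among the 10.

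RASA3 and GLI2 joined many peaks with a rise in RNA. RASA3 had 21.8, 47.2 and 32.1 scaled reads in EPI control and 274, 336 and 194 in MES control (log2FC 2.99, SE 0.31, limma adjusted p = 1.77e-05). GLI2 had no value in this fit and was read from all SE events of the EMT table, where 6.81% of 10326 genes were called higher and 9.22% lower. It had 3.79, 0 and 2.05 in EPI control and 17.6, 31.4 and 24.1 in MES control (log2FC 3.34, SE 0.68, limma adjusted p = 0.00366). By that fit, 80 of 273 tested hosts without an EPI peak were higher (29.3%). NACC2 rose too, from 77.8, 115 and 70.3 to 295, 248 and 140 (log2FC 1.33), although it also held 77 EPI peaks. The other leading genes with a value did not pass, MAD1L1 with a log2FC of 0.40 (SE 0.18), COL18A1 with -0.43 (SE 0.34) and SEPTIN9 with -0.76 (SE 0.23) among them.

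In the same fit, the 10 host genes with the largest fall all held EPI peaks, from 4 in C15orf52 to 77 in TNK2. PTP4A3, a phosphatase, fell by 2.80 on the log2 scale, from 29.4, 33.5 and 20.7 to 2.94, 3.06 and 3.16, and nevertheless held 15 MES-only and 8 EPI peaks. ARRDC1, an arrestin-domain protein, fell by 1.72, from 1910, 1910 and 1390 to 489, 494 and 584, with 4 MES-only and 51 EPI peaks. The others were CELSR1 (-1.70), a planar polarity cadherin, the kinase TNK2 (-1.69), BOK (-1.65), of the BCL2 family, with 21 MES-only peaks, the guidance cue SEMA3F (-1.62), the transcription factor TFAP2A (-1.54), CARHSP1 (-1.54), NPDC1 (-1.45) and C15orf52 (-1.44).

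Gene groups differed in how their members carried MES-only peaks. Of 31 mesenchymal and matrix genes, 10 held 130 MES-only peaks between them, and none of these 10 held an EPI peak. COL6A2 (51 peaks), COL6A1 (44) and COL5A1 (10) led, followed by CDH11, FBN1 and LTBP2 (6 each), COL1A1 (3), FBLN5 (2), CDH2 and LOXL2 (1 each). Of the 6 with a value, 5 were called higher (median log2FC 7.18), and over the whole list, with or without peaks, 19 of 22 tested genes were higher. LOXL2, a lysyl oxidase, had a log2FC of 0.30 (SE 0.29). In the EMT table, COL6A2 rose from 10.4, 34 and 54.3 to 32900, 37100 and 34000 scaled reads (log2FC 10.27), and FBN1, which encodes the microfibril protein fibrillin, from 78.7, 96.3 and 134 to 14800, 23200 and 11200 (7.27).

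Of 32 EMT signalling genes, 13 held 118 MES-only peaks, 7 of them without an EPI peak. The ligand WNT5A held 23, the transcription factor TWIST2 17 (and 6 EPI peaks), the receptors ROR2 and PDGFRA 17 and 16, SMAD3 and ZEB1 8 each, WNT5B and EGFR 7 each, PDGFRB 5, FGFR1 and IGF1R 4 each, TGFBR3 and ROR1 1 each. Of the 6 with a value, 4 were higher, and over the list 8 of 17 were higher and 2 lower. ZEB1, a transcriptional repressor of epithelial genes, had 0.948, 1.97 and 6.2 scaled reads in EPI control and 74.5, 58.1 and 69.6 in MES control. In the EMT table, WNT5A rose from 19, 9.72 and 16.4 to 1000, 849 and 589 (log2FC 5.68), and PDGFRA was at 0, 0 and 1.02 in EPI control and 40.1, 60.9 and 50.2 in MES control. EGFR showed the opposite balance, with 18 EPI peaks beside its 7 MES-only peaks and a log2FC of -0.49 (SE 0.22) that did not pass.

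The focal adhesion and actin genes were different in kind. Of 42, 11 held 69 MES-only peaks and each of these 11 also held EPI peaks. TNS3, a tensin, led with 24 MES-only and 6 EPI peaks and rose from 74.9, 104 and 118 to 421, 504 and 323 (log2FC 2.06, SE 0.26). TNS1 rose as well (1.33), and the other 9 hosts, such as PXN, FLNA and ACTN1, did not pass. Over the whole list 9 of 40 tested genes were higher and 4 lower. Of 25 epithelial junction and polarity genes only MAGI1, a junctional scaffold, held MES-only peaks, 4 beside 3 EPI peaks. Of 32 splicing regulators 5 did, HNRNPH1 with 9, PTBP1 with 7, AKAP8 itself with 5, HNRNPF with 3 and HNRNPK with 1, all of them also with EPI peaks. None of the 4 with a value was called between the states, and their median log2FC was -0.07.

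Knockdown of AKAP8 in MES changed few host genes, and those named here were chosen after their values were seen. Of all genes tested, 2.27% were called, and of the 1053 tested hosts 31 were, 16 higher and 15 lower (at an unadjusted p under 0.05, 272 of 1053 hosts and 1964 of all 9016 genes). Among hosts with at least 10 MES-only peaks it was 5 of 217. The fatty acid desaturase FADS1, which held 1 MES-only peak and no EPI peak, fell from 4490, 4480 and 4740 in MES control to 1270 and 1300 (log2FC -1.83, SE 0.26, limma adjusted p = 0.00324). PAQR5, a membrane progestin receptor, fell from 285, 345 and 624 to 53.7 and 118 (-2.29). The other lower genes included the desmosome-associated PPL, with 9 MES-only peaks (-2.06), the circadian factor CLOCK (-1.38), SDHA of the respiratory chain (-1.15) and AKAP8. GLIS2, a zinc finger transcription factor with 46 MES-only and 25 EPI peaks, rose from 105, 54.1 and 91.7 to 263 and 322 (1.84, SE 0.33, limma adjusted p = 0.0106). The glycine transporter SLC6A9 rose by 2.23, from between 39.2 and 73.4 to 215 and 296, ANKRD52 by 1.51, the autophagy genes SQSTM1 and ULK1 by 1.43 and 1.64, and ASPSCR1, with 59 MES-only peaks, by 1.10. The count rests on few libraries. It was 9 without the second MES knockdown library, 17 without the first, and 18 and 17 without the first and second MES control library.

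Splicing was read from SE events, as the percent spliced in (PSI), the share of transcripts that include the variable exon. An exon counted as beside a MES-only peak when such a peak lay within 1000 nt on its strand. Of the MES-only peaks, 1030 (6.7%) were beside a tested exon. Between EPI and MES control, 1.40% of the 49330 events tested were called at an FDR under 0.05 and a change in PSI (∆PSI) of at least 10 percentage points. Beside MES-only peaks it was 25 of 800 events (3.12%), in 21 genes, 20 with more inclusion in MES and 5 with less. Beside MES shared peaks it was 12 of 668 (1.8%) and beside EPI-only peaks 34 of 1286 (2.64%), and the differences between these shares were not tested. In 23 of the 25 events the libraries of the states did not overlap. The nearest MES-only peak lay upstream of 12 of the 24 exons and downstream of 12. Without the first EPI control library 12 events were called, and without the second MES control library 15.

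The largest change was in EXOC7, an exocyst subunit, at a 93 nt exon (chr17:74087224-74087316). Its PSI was 22%, 8.76% and 9.84% in EPI and 95.8%, 83.1% and 95.2% in MES (∆PSI 77.8 points, adjusted p = 1.05e-13 from the quasi-binomial test). A second event of the same exon, with other flanking exons, had more reads (192 against 47.7 per library). It went from 2.75% to 17.6% on average (14.8 points), so that in this event the exon stayed mostly skipped in MES. The peak lies 44 nt upstream of the exon, with a log2 IP/input of 1.64, below the study's cutoff. The lncRNA MEG3 included an exon of 144 nt (chr14:101302073-101302216) at 26.2%, 10.3% and 17% in EPI and at 59.5%, 91.3% and 69.9% in MES, and an event that differs in 3 nt of that exon gave 54 points. The other 5 events of these MEG3 exons, with other flanking exons, did not pass, 3 of them at 12 to 22.3 points and 2 at -11.7 points. GSN, which encodes the actin-severing gelsolin, included a 71 nt exon (chr9:124062334-124062404) at 14.5%, 16.7% and 31.3% in EPI and at 63.7%, 71.9% and 66.5% in MES (46.5 points, 89.7 reads per library). The event of this exon with the most reads (905 per library) went from 2.08% to 11% on average, under the 10 points required. Events with 27.1 and 17.4 points had adjusted p of 0.105 and 0.48 from the quasi-binomial test.

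PLXNB2, a semaphorin receptor gene, has the closest peak, 30 nt downstream of a 60 nt exon (chr22:50733148-50733207), with a log2 IP/input of 3.41. The exon was included at 43.5%, 63.1% and 67% in EPI and at 93.2%, 94% and 77.5% in MES (30.4 points, adjusted p = 2.66e-05 from the quasi-binomial test). A second event of this exon was at 98% and 98.7% on average and did not pass. MTA1, of the NuRD complex, rose at a 51 nt exon (chr14:105915696-105915746) from 29.3%, 35% and 33.3% to 69.2%, 57.8% and 61%, with 7 MES-only peaks within reach. A second event of the MTA1 exon was at 72.7% and 73.3% on average and did not pass. The events called in MTA1 and PLXNB2 did not pass the limma fit on the logit of PSI. CAPN15 rose from 2.63%, 7.32% and 12.8% to 30.2%, 81.8% and 37.5%, with 12 such peaks, the libraries of MES being far apart. It did not pass without the first EPI control (39.8 points) or the second MES control library (26.3 points). PCBP4, a poly(C)-binding protein, rose from 13.9%, 22.6% and 18.2% to 33.3%, 67.8% and 73%. A second event of the PCBP4 exon was at 49% and 62.6% on average and did not pass. INF2, an actin-nucleating formin, changed the other way at a 57 nt exon (chr14:105181621-105181677), from 92.5%, 90.3% and 93.9% to 59.9%, 62.3% and 62.9% (-30.5 points), as did A1BG-AS1, an antisense lncRNA, from 93.5%, 91.1% and 90.5% to 51.2%, 67.4% and 46.7%. With 1 library left out at a time, A1BG-AS1 (35.5 reads per library) passed only without the second MES control library. A second event of its exon (100% and 97.1% on average) did not pass. Smaller increases included 2 events of the splicing regulator PTBP1 (14.7 and 12.1 points), whose libraries overlapped between the states.

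**Figure D5:**
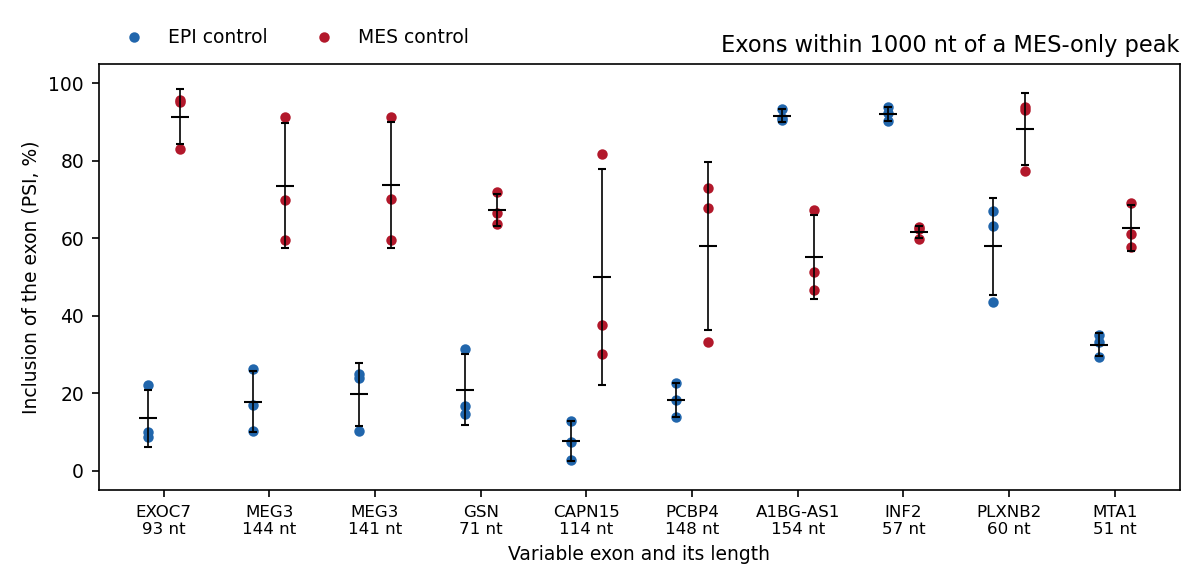
PSI (%) of the 10 SE events with a MES-only peak within 1000 nt and a change of over 30 points, with points for the 3 EPI and 3 MES control libraries and bars for mean and SD. MES libraries lie above EPI libraries in 8 events, from 13.5% to 91.4% on average in EXOC7, and below them in A1BG-AS1 and INF2 (92.2% to 61.7%).

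The windows around the peaks beside 4 of these exons are printed to show the RNA under a listed peak next to a changed exon. Of the nearest peaks of the 24 exons, 15 passed the study's cutoffs. Those of PLXNB2 and MTA1 did, whereas those of EXOC7 (log2 1.64, -log10 adjusted p 2.4) and INF2 (0.891 and 1.04) did not. They lie at chr17:74087345-74087444 (EXOC7, minus strand), chr22:50733043-50733142 (PLXNB2, minus strand), chr14:105915220-105915319 (MTA1, plus strand) and chr14:105181406-105181505 (INF2, plus strand), again from GRCh37 with G runs in capitals.
EXOC7: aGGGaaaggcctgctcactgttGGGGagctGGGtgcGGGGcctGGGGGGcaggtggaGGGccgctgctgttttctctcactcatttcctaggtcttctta
PLXNB2: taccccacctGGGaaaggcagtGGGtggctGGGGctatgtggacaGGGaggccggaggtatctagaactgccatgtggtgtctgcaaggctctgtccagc
MTA1: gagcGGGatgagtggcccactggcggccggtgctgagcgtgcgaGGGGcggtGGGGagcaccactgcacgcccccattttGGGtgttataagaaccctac
INF2: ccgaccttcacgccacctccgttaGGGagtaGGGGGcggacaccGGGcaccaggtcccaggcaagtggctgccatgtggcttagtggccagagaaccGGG
The EXOC7 window holds 6 G runs, and the other 3 windows hold 4 runs each.

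No exon beside a MES-only peak passed the test after AKAP8 knockdown in MES. Of all 43832 events tested with 2 control and 2 knockdown libraries, 0.0479% were called. Beside MES-only peaks it was 0 of 751, with 24 (3.2%) past an unadjusted p under 0.05 and 10 points in the quasi-binomial test, against 1.06% of all events. A limma fit on the logit of PSI called 0 as well, with 25 past the unadjusted limits. Without the first MES knockdown library the quasi-binomial test called 2. PLXNB2 came closest, at 93.2% and 94% in control and 88.3% and 63.3% after knockdown (-17.8 points, adjusted p = 0.0637 from the quasi-binomial test), where the direction is opposite to that in EMT. PPHLN1, also chosen after its values were seen, was at 55% and 54.7% in control and at 33% and 39.1% after knockdown (adjusted p = 0.127). The INF2 exon was at 59.9% and 62.3% and then at 46.1% and 43.6%, in the same direction as in EMT (adjusted p = 0.763 from the quasi-binomial test). The paper, at looser cutoffs, listed the PLXNB2 and INF2 exons among those bound and regulated by AKAP8 in MES. It also listed exons of SUGP2, NEK6, TSPAN4, SLC16A3, EIF4A2 and CCND3, which lie beside MES-only peaks and did not pass here. At the FDR, PSI and read cutoffs used here, the paper's own test called more SE events in both states. The test used here called 21 in MES and 28 in EPI and was thus stricter, and the 0 of 751 holds for it alone. The EMT and knockdown comparisons share 2 MES control libraries, with identical reads in 41773 of 41773 common events.

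In EPI, where these peaks were not listed, 0.0588% of 47579 events were called after knockdown and 1 of 745 beside a MES-only peak. This was a 938 nt exon of MICALL2 (chr7:1473846-1474783), a gene of junctional membrane traffic, at 63%, 88.2% and 61.2% in control and 100%, 100% and 96.2% after knockdown (27.9 points, adjusted p = 0.0416 from the quasi-binomial test). It rests on 53 reads per library, did not pass the limma fit on the logit, and, with 1 library left out at a time, passed only without the second EPI control library. In MES the same exon was at 71.4% and 58.7% in control and 88.9% and 86.7% after knockdown (adjusted p = 0.763 from the quasi-binomial test). The paper, at looser cutoffs, listed this exon as regulated by AKAP8 in EPI, with AKAP8 binding sites on both sides. The exon was thus not free of AKAP8 sites in EPI.

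The difference between the states was also tested. Of 30565 events in both knockdown tables, 0.00327% had a knockdown effect that differed between MES and EPI, and beside MES-only peaks it was 0 of 538 by the quasi-binomial test (22 past an unadjusted p under 0.05 and 10 points, 4.09% against 1.48% of all events). The strongest was the PCBP4 exon, with a ∆PSI of 23.7 points in EPI and -24 points in MES (adjusted p = 0.0928 from the quasi-binomial test), and in each state its control and knockdown libraries overlapped. This count reached 3 without the first MES knockdown library, 2 without the first EPI knockdown library and 1 without the first MES control library. A second event of the PCBP4 exon rose by 24.4 points in EPI and by 7.65 points in MES after knockdown, and passed in neither. Retained introns, another type of event, could hardly be examined, because 9 of the 1641 tested in MES held a MES-only peak. None of the 9 was called by the quasi-binomial test, against 0.305% of all. None was past an unadjusted p under 0.05 and 10 points, against 3.78% of all.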

How the data were processed

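The 2 peak lists were made by the authors with the public eCLIP and merge-peaks pipelines, which merged the 2 replicates of each state. For every peak the authors deposited a log2 ratio of IP to input and a -log10 adjusted p, the latter capped at 400. Positions are in GRCh37. Peaks were overlapped by strand (at least 1 nt) and placed with Gencode version 44 lifted to GRCh37, newer than the annotation of the authors. Intervals are Wilson 95% intervals. Members and gene lists were chosen with earlier results of these data known.

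RNA-seq reads were aligned by the authors to GRCh37 with STAR, and junction reads per event were counted with rMATS. The SE tables of 3 comparisons and the retained intron table of the MES knockdown were used. The gene table, which holds fold changes and q-values of the authors' own comparisons, the other event types, and the p-value, FDR and PSI columns were not used. Gene values are the summed reads of 33107 SE events found in all 3 tables, scaled by median-of-ratios size factors. They cover only genes with such an event and change when splicing changes. Genes with at least 10 scaled reads in at least 2 libraries were tested with limma (version 3.58.1, R 4.3.3, trend) on log2(value + 1), 4 groups in 1 fit. PSI was recomputed from reads and effective lengths. Events averaging 20 or more junction reads per library entered a quasi-binomial F test that compared inclusion with skipping reads, limma moderated the dispersions, and the Benjamini-Hochberg adjustment ran over all events. All tests are two-sided. The gene fit, the quasi-binomial test on SE events and the test of the difference between the states were tried on simulated data. The fit on the logit of PSI and the retained intron test were not. Whether the replicates were separate cultures is not given in the sources used here beyond their being called biological replicates, so p-values measure the spread between these samples.

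Named items were the 15 strongest peaks, the 15 leading hosts, the 10 hosts called in EMT with the largest change in each direction whose libraries did not overlap, exons called with over 30 points in EMT or called after knockdown, and list members. A few of these are not reported here. Other named items were chosen after their values were seen. Alternatives were other scalings, filters, distances, cutoffs and tests, and leaving out each library.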

Additional observations from a re-analysis of the deposited data

How the results depend on the processing

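No paired analysis was possible because the deposited tables list the libraries of a group in 1 cell without replicate numbers. Libraries are numbered by their place there.

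Of the values recomputed for the main counts and shares, 87 stayed close to the main value and 32 moved, and no direction turned. A count was taken as moved beyond 1.5 times, and a share outside its 95% interval, so the moved shares can differ little from the main ones. For named genes and exons, 220 recomputed values kept their side of the threshold and 62 lost it. With both thresholds raised in turn there were 10214 MES-only peaks at a log2 of at least 3 and 8179 at a -log10 adjusted p of at least 5. The share in distal introns was 79.6% by peak centre, 68.8% with a limit of 1000 nt from the splice site, 79.8% without peaks within 100 nt of an EPI peak and 80.5% at a log2 of at least 3. GGG occurred in 99.9% of 200 nt windows and in 94.9% of the peak intervals themselves. By adjusted p alone 179 hosts were higher and 109 lower in MES, and hosts with no EPI peak gave 47 and 6. With exons within 2000 nt, 38 changed in EMT and 2 after knockdown in EPI, where the limma fit on the logit called 0.

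Leaving out 1 library at a time gave 80 to 105 hosts higher and 35 to 66 lower in EMT, 9 to 46 changed after knockdown in MES, 12 to 25 exons changed in EMT, 0 to 2 after knockdown in either state, 0 to 3 whose effect differed between the states, and 0 retained introns. With 1 MES knockdown library left, it was assumed to vary like the other groups. Scaled to total reads, 7.97% of hosts were higher and 6.17% lower, against 4.36% and 8.17% of all genes, whose median log2FC moved from 0.011 to -0.10. Peak values have no replicate error here, and seCLIP depth, on which the detection of weak peaks depends, is unknown.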
